A study of Mus musculus with 2 samples.

Results

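The genes described here run the mammalian cell cycle: cyclins, their kinases (CDKs), the inhibitors of those kinases, the E2F and retinoblastoma (RB) proteins, and the phosphatases, kinases, ubiquitin factors and transcription factors that act on them. They were compared between whole lungs of C57BL/6 mice that carried Lewis lung carcinoma (LLC) cells with TDAG8 and whole lungs of mice that carried LLC cells with a vector. The members are a list of 44 gene symbols, taken with every probe set of the array that is annotated to 1 of them and to no other gene. Of the 44 genes, 43 had such a probe set, among 18193 genes in all, and the 43 genes had 94 probe sets. No such single-gene probe set was found for Ccnb1, the main mitotic B-type cyclin, so it was not analysed here. Cdkn2a was too dim to measure on either array, which left 42 measured members, 39 of them above the floor on both arrays and 3 (Mybl2, Cdkn3 and Cdc25c) above it in the TDAG8 array only.

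LLC is a lung carcinoma line of C57BL mice whose cells seed tumours in the lung when injected into a vein. In the TDAG8 group the injected LLC cells overexpressed TDAG8, the proton-sensing receptor encoded by Gpr65, and in the control group they were transfected with vector. All mice were 6 to 8 weeks old when 500000 cells in 200 µL went into the tail vein, and lungs were taken on day 19. Each group was represented by a pool of 10 lungs read on 1 array, so there was no replicate, no test and no error on any value, and every difference below describes 2 pooled RNAs. Tumour and host are both mouse, and the array does not separate their RNA. In a whole organ, more dividing cells and more RNA per dividing cell cannot be told apart.

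Cyclins are short-lived subunits that switch CDKs on. D-type cyclins with Cdk4 and Cdk6 start the phosphorylation of RB in G1, and cyclin E with Cdk2 completes it at the G1/S border. Cyclins A and B with Cdk1 drive G2 and mitosis. Phosphorylated RB releases activating E2F factors, which transcribe the genes of S phase, while MYBL2 and FOXM1 with the MuvB complex transcribe the genes of G2 and mitosis. The Ink4 and Cip/Kip proteins hold CDKs inactive, and ubiquitin ligases clear cyclins and inhibitors at set times. Few cells of a healthy adult lung divide, and these genes are best known in the lung from tumours and from repair after injury.

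Values are intensities as deposited, 1 per probe set, scaled so that each array had a trimmed mean of 100.0. The intensity floor was each array's median, 26.3 for the vector control array and 24.3 for the TDAG8 one. Ratios are TDAG8 over vector control, centred on the median of the 11044 genes that both arrays measured above the floor. Where the control value was under the floor, the floor took its place and the fold is given with the words at least. A gene was counted as higher or lower at 2-fold. Over those 11044 genes the log2 ratio had an SD of 0.554, which holds real differences as well as noise. Gpr65 itself went from 32.3 to 73.9, but no source used here says whether its probe set reads the transfected sequence. The lung markers were present on both arrays: all 9 alveolar and airway epithelial markers and all 8 endothelial markers lay above the floor.

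Most of the regulators were higher in the lungs with TDAG8-overexpressing LLC cells, with the largest ratios among genes that act in S phase, G2 and mitosis. Of 42 measured members, 35 had a log2 ratio above 0 and 16 were at least 2-fold higher, 38.1% of them, against 5.41% of all 11949 measured genes. None was at least 2-fold lower, against 1.19% of all measured genes. The median log2 ratio of the members was 0.84, and that of all measured genes was -0.0009. By probe set, 28 of the 81 member probe sets above the floor on at least 1 array were 2-fold higher and 1 was 2-fold lower, against 4.87% and 1.13% of all single-gene probe sets.

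By phase of action, the 17 measured genes of S phase, G2 and mitosis had a median log2 ratio of 1.79, with 11 past 2-fold. All of them lay above 0 at the main setting. The lowest were Cdc25c (a bound of 0.01) and Wee1 (0.07). Cdc25c turned to -0.04 without centring. Wee1 turned to -0.004 after quantile normalization and to -0.13 as the mean over its probe sets. The 9 genes of the G1/S border had a median of 0.94, 4 of them past 2-fold and only E2f2 below 0. The 10 genes of G1 had a median of 0.34, and Cdk4 alone among them passed 2-fold. The 6 genes with no single phase of action had a median of 0.0038 and none passed 2-fold. With each gene as the mean over all its probe sets, the same 4 medians were 1.12, 0.45, 0.43 and 0.0033. In that mean, values under the floor were raised to it. A probe set too dim on both arrays thus entered with a ratio near 0 that holds no measurement.

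**Figure D1:**
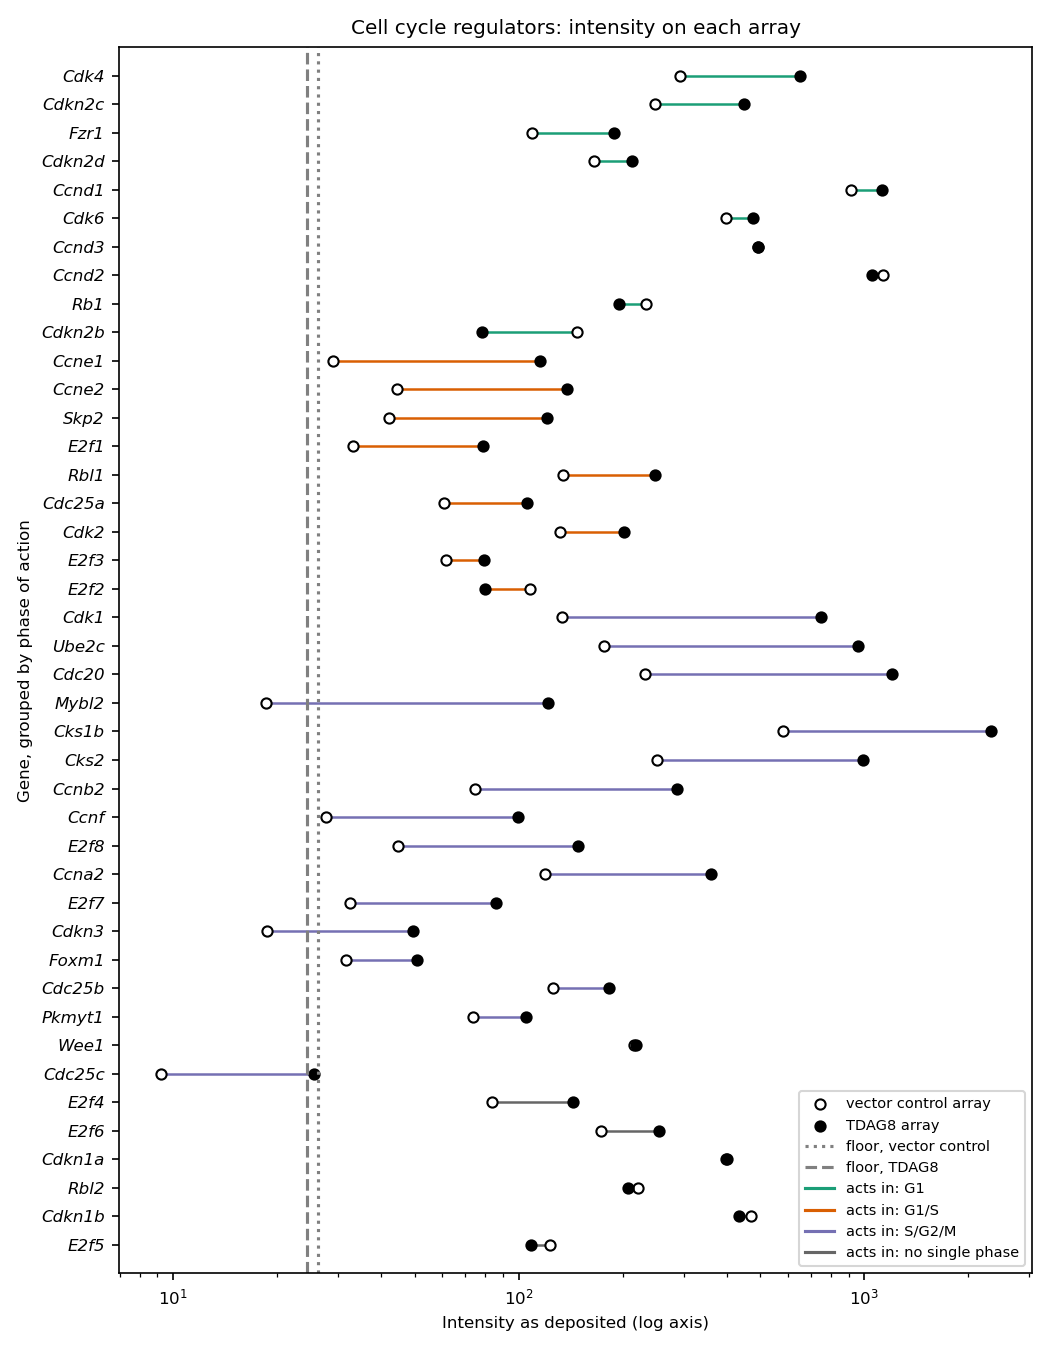
Intensity as deposited (log axis) of the 42 measured genes on the vector control array (open circles) and the TDAG8 array (filled circles), 1 probe set and 1 array a group, grouped by phase of action, with each array's floor as a vertical line. The lines joining the arrays are long for S/G2/M genes such as Cdk1 (133.6 to 747.5) and nearly absent for Ccnd3, Wee1 and Cdkn1a.

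The kinase and cyclins of S phase, G2 and mitosis were all past 2-fold higher where they could be read. Cdk1, the kinase that drives cells into mitosis, had an intensity of 133.6 with vector control cells and 747.5 with TDAG8-overexpressing cells, 5.83-fold higher, more than 99.89% of all measured genes. Ccnb2, the B-type cyclin that could be read, went from 74.5 to 286, a log2 ratio of 2.00. Ccna2, the cyclin of S phase and G2, had 2 probe sets that went from 119 to 361 and from 66.9 to 294, log2 ratios of 1.65 and 2.20. Ccnf is a cyclin by its fold but works as the substrate receptor of an SCF ubiquitin ligase. It went from 27.7, just above the floor, to 99.5, 3.74-fold higher, and its second probe set, with a control value of 1.7, gave a bound of at least 0.22 on the log2 scale. The ratio of Ccnf became a bound of 0.72 when the floor was raised to the 65th percentile.

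The small CDK-binding subunits stood beside their kinase. Cks1b, which also helps the SCF ligase recognise the inhibitor encoded by Cdkn1b, went from 583 to 2318, 4.14-fold. Its second probe set, from 128 to 618, gave a log2 ratio of 2.32. Cks2, its close relative, went from 251 to 988, 4.11-fold, with 1.87 on the log2 scale from the second probe set. All 4 probe sets of this pair were therefore between 1.87 and 2.32.

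The promoters of genes in this group are shown because the genes were higher together and carry a known pair of elements. The cell cycle genes homology region (CHR, letters TTTGAA) is where the MuvB complex binds, and the CCAAT box is bound by NF-Y. The stretches are the bases just before the RefSeq start site (build GRCm38.p6, gene strand, 5′ to 3′), with CHR, CCAAT and E2F letters in capitals on either strand, so that TTCAAA is a CHR read from the other strand and ATTGG marks the reverse of the other element.
Ccnb2, chr9:70421555-70421704, minus strand: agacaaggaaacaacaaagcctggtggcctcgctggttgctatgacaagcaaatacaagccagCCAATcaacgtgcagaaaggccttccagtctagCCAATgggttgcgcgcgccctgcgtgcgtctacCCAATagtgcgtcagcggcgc
Ccnf, chr17:24251410-24251559, minus strand: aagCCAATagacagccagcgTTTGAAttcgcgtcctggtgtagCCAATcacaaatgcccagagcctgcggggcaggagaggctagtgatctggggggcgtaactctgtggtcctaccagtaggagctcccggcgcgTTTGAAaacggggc
Cdk1, chr10:69352913-69353062, minus strand: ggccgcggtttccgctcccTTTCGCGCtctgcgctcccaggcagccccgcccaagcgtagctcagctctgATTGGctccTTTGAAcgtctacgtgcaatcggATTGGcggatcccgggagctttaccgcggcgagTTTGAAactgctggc
Cdc20, chr4:118437344-118437493, minus strand: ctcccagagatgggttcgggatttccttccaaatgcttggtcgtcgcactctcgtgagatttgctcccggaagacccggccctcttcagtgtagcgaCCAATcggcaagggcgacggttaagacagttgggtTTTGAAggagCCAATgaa
Ube2c, chr2:164769779-164769928, plus strand: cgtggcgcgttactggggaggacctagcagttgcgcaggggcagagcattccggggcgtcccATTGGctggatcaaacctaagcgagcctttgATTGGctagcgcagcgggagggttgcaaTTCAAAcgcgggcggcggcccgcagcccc

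These promoters were picked for carrying both elements, so that they share them is no result. In them CCAAT boxes lie upstream of a CHR close to the start site, and Cdc20 has a further CCAAT box after its CHR. The last CHR began 14 bases before the start site in Ccnf, 15 in Cdk1 and 18 in Cdc20, and 29 in Ube2c, while in Ccnb2 a CHR began at base 5 after it, outside the stretch shown. The search covered windows of 300 bases, 250 before and 50 after the start, on both strands, for TTTGAA, for CCAAT and for the E2F letters TTTCCCGC, TTTGGCGC, TTTCGCGC and TTTGCCGC. No match of 1 motif overlapped a match of another in the members' windows. RefSeq windows were at hand for 33 of the 44 members, and a gene with several windows was counted by any of them. CHR and CCAAT letters were both present in 8 of 13 S/G2/M members, against 7.97% of 27025 genes. The S/G2/M members without CHR letters were Ccnb1, Cks2, E2f7, Cdc25b and Mybl2. Of these, Cks2, E2f7 and Mybl2 were also past 2-fold higher. In G1 members the pair was found in 0 of 8, in G1/S members in 3 of 8, and in members of no single phase in 0 of 4. E2F letters were found in 5 of 8 G1/S members and in 2 of 13 S/G2/M members, against 2.6% of all genes. The members' windows had a mean GC content of 63.4% and all genes' windows 53.6%, and a match of letters is no measure of binding.

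Ube2c and Cdc20, the ubiquitin factors of mitotic exit, had the next highest ratios after Cdk1 among members measured on both arrays. Ube2c, the E2 enzyme that works with the anaphase-promoting complex (APC/C), went from 176 to 956, 5.65-fold. Cdc20, the activator that lets the APC/C destroy cyclin B at anaphase, went from 232 to 1198, 5.38-fold, and a second probe set from 94.3 to 360, a log2 ratio of 1.99. The remaining Cdc20 probe set, 6.0 and 24.6, barely reached the floor and carries no order. Fzr1 encodes Cdh1, the activator that keeps the APC/C working through G1. It went from 110 to 189, a log2 ratio of 0.85, so the mitotic activator had the higher ratio of the pair.

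Skp2, the F-box protein that marks the inhibitor encoded by Cdkn1b for destruction at the G1/S border, had 6 probe sets and was low in the control throughout. The probe set that stood for it went from 42.0 to 121, 2.99-fold. Of the others, 4 were under the control floor, with log2 bounds from 0.89 to 2.42, and 1 was too dim on either array. Raising the floor to the 65th percentile turned its log2 ratio into a bound of 0.9975.

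At the G1/S border the E-type cyclins were higher and their kinase less so. Ccne1 went from 28.9, just above the floor, to 115, 4.14-fold, and a second probe set gave a bound of at least 1.41 on the log2 scale. With the higher floor its ratio was a bound of 0.93. Ccne2, read by 1 probe set, went from 44.5 to 138, 3.23-fold. Cdk2, the partner of both, went from 132 to 201, a log2 ratio of 0.67, and Cdc25a, the phosphatase that activates Cdk2, from 60.8 to 106, a log2 ratio of 0.86, and 0.51 by a second probe set.

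The D-type cyclins, which carry growth signals into the cycle, differed little between the arrays. Ccnd1 went from 916 to 1126, a log2 ratio of 0.36, and its 3 probe sets lay between 0.32 and 0.55. Ccnd2 had 7 probe sets, all above the floor, between -0.05 and 0.50, and the one that stood for it read 1136 and 1054. Ccnd3 read 493.0 and 493.1. A further Ccnd3 probe set went from 81.6 to 42.9, so with the mean over probe sets the ratio of Ccnd3 was -0.34.

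Of the 2 kinases that pair with cyclin D, Cdk4 and Cdk6, Cdk4 had the higher ratio. Cdk4 went from 293 to 651, 2.31-fold, and its 3 probe sets lay within 0.09 of each other on the log2 scale, from 1.17 to 1.26. Cdk6 went from 397 to 476.5, or 0.32 on the log2 scale, and its probe sets reached 0.79. Every Cdk4 probe set was thus above every Cdk6 probe set. Their promoters are set side by side to show how they differ in the E-box CACGTG (capitals), the letters read by MYC with MAX and by other factors of that family, a motif that was searched after the sequences had been seen.
Cdk4, chr10:127063355-127063534, plus strand: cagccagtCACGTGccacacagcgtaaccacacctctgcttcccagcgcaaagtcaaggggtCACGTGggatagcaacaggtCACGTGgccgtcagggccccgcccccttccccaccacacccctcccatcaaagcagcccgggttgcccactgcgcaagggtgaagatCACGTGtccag
Cdk6, chr5:3343743-3343892, plus strand: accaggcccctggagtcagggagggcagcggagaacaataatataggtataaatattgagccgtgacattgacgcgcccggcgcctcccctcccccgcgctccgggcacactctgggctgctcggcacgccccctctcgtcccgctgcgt
The Cdk4 window held 4 E-boxes, a number reached by 6 of 27025 genes, Cdk4 included. The Cdk6 window held 1, which lies before the stretch shown and starts 220 bases before the start site. At least 1 E-box was in 4 of the 33 members' windows and in 8.09% of all genes. Neither the CHR, the CCAAT box nor the E2F letters occurred in the windows of Cdk4 or Cdk6.

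**Figure D2:**
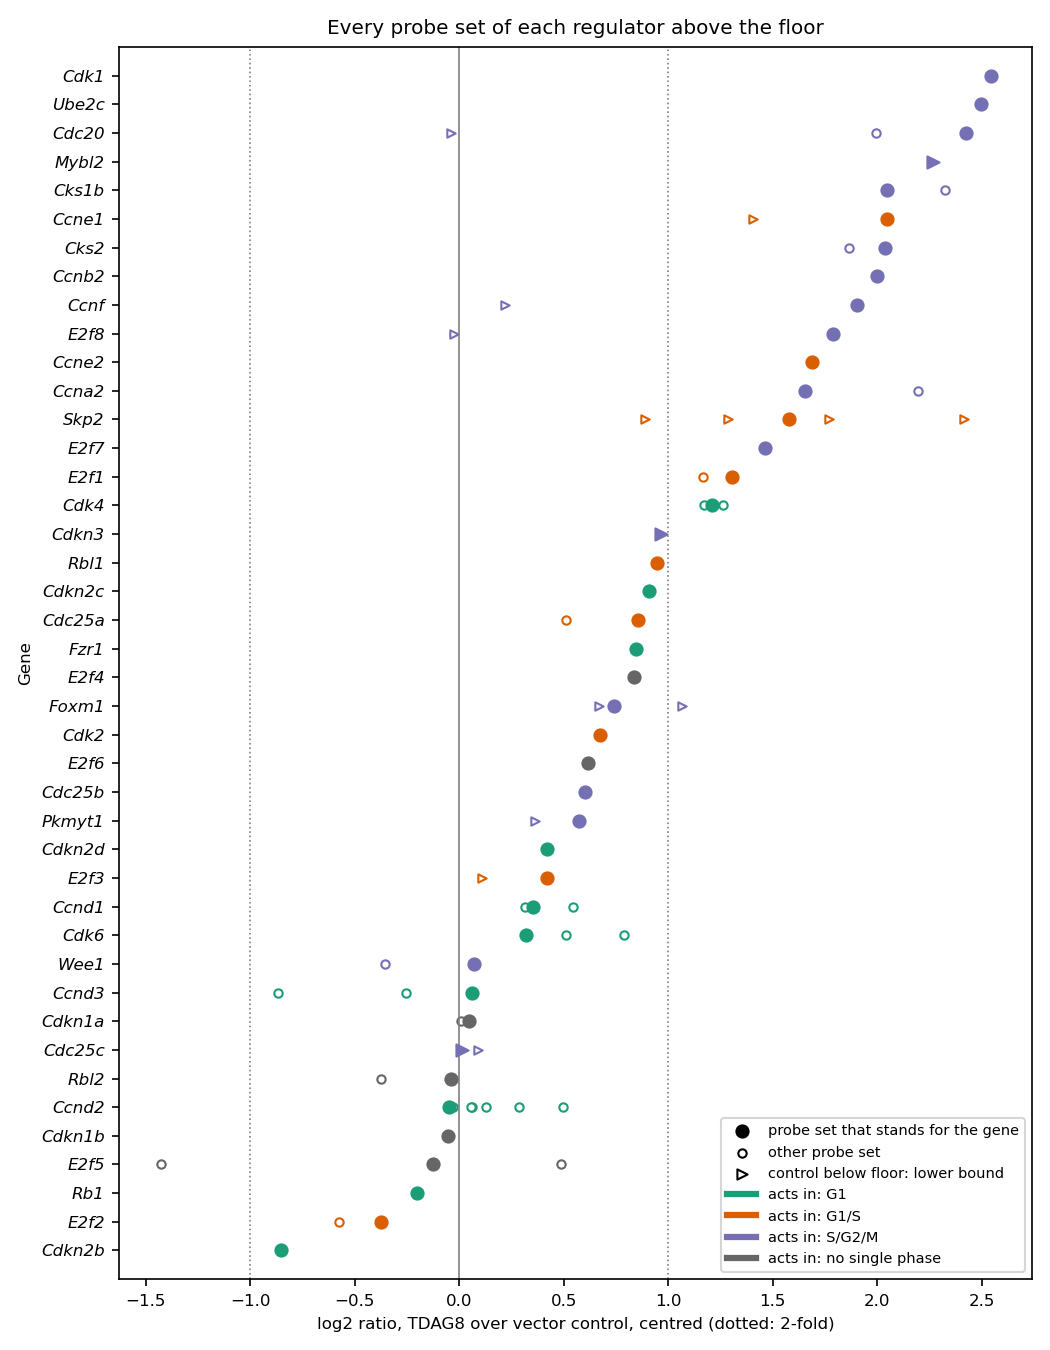
Centred log2 ratio of TDAG8 over vector control for every measured probe set of each gene, ordered by the probe set that stands for the gene (large filled), with other probe sets open and lower bounds as triangles. The 3 Cdk4 probe sets lie together between 1.17 and 1.26, while those of E2f5 spread from -1.43 to 0.49.

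The E2F family split within itself. Among activating E2Fs, E2f1 went from 33.2 to 78.8, 2.47-fold, and its second probe set gave 1.17 on the log2 scale, although both control values were near the floor. Its log2 ratio was 0.86 with an offset in place of the floor, 0.82 as the mean over probe sets and a bound of 0.38 with the higher floor. E2f2 was lower on the TDAG8 array by both of its probe sets, from 108 to 79.6 and from 86.0 to 55.5, log2 ratios of -0.38 and -0.57. E2f3 lay between them, from 61.6 to 79.1, a log2 ratio of 0.42. The 3 activators of the same family thus ranged from -0.38 to 1.31.

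The atypical E2Fs, E2f7 and E2f8, repress E2F targets late in S phase and are themselves E2F targets. E2f7 went from 32.5 to 86.1, 2.76-fold, and E2f8 from 44.7 to 148, 3.45-fold. Both were under 2-fold in at least 1 alternative: E2f7 had 0.98 with an offset and a bound of 0.51 with the higher floor, and E2f8 had 0.90 as the mean over probe sets. Of the other repressing E2Fs, E2f4, which works with pocket proteins, went from 83.7 to 143, a log2 ratio of 0.84. E2f6, which works with Polycomb proteins, went from 173 to 254, a log2 ratio of 0.62. The probe sets of E2f5 disagreed: 1 went from 123 to 108, 1 from 87.2 to 117 and 1 from 83.8 to 29.9, so no direction is given for it.

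Among pocket proteins, Rbl1 (p107), which is transcribed as cells enter S phase, had the highest ratio. Rbl1 went from 134 to 248, a log2 ratio of 0.94, by the only one of its 4 probe sets above the floor. As the mean over all 4, with the other 3 set to the floor on both arrays, its log2 ratio was 0.21. Rb1, the retinoblastoma gene, went from 233 to 195, a log2 ratio of -0.20, and Rbl2 (p130), the pocket protein of resting cells, from 221 to 207, or -0.04, with -0.38 from a second probe set.

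None of the 6 measured CDK inhibitors was counted past 2-fold in either direction, and the Cip/Kip pair differed least between the arrays. For Cdkn3 this is open, because its 1.95-fold is a lower bound. Cdkn1a, which encodes p21, the arrest protein induced by p53, read 400.4 and 397.0, and its second probe set 49.7 and 48.0. Cdkn1b, which encodes p27, read 468.5 and 432.8. These 2 Cip/Kip genes, with log2 ratios of 0.05 and -0.06, sat inside the interquartile range of all measured genes, -0.33 to 0.35. The sign of Cdkn1a turned to -0.01 without centring and to -0.03 after quantile normalization.

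The Ink4 genes, whose proteins bind Cdk4 and Cdk6, went in different directions. Cdkn2b (p15) was lower with TDAG8-overexpressing cells, from 148 to 78.4, 1.81-fold, the lowest ratio among the members, with 3.05% of all measured genes below it. Its log2 ratio stayed between -0.91 and -0.69 across the alternatives. Its neighbour on chromosome 4, Cdkn2a, read 7.3 and 4.7 and has no measured ratio. Cdkn2c (p18) went from 249 to 447, a log2 ratio of 0.91, and Cdkn2d (p19) from 165 to 213, or 0.42. Cdkn3, a phosphatase that acts on CDKs and is transcribed in G2 and mitosis, was under the floor in the control at 18.7 and reached 49.3, at least 1.95-fold higher.

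None of the enzymes that set the inhibitory phosphate of Cdk1 was counted past 2-fold at the main setting. Wee1, a kinase that adds it, read 216.0 and 217.8, and its second probe set went from 109 to 81.7. Pkmyt1, the membrane-bound kinase with the same task, went from 73.5 to 105, a log2 ratio of 0.57. Cdc25b, a phosphatase that removes it, went from 125 to 183, a log2 ratio of 0.60. Cdc25c, the mitotic phosphatase, was at the floor, at 9.2 and 25.5, and its bound moved from 0.01 to 1.55 once the floor was lowered to the 30th percentile, so it has no usable value.

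The transcription factors of G2 and mitosis were dim on the vector control array. Mybl2 (B-Myb) was under the floor at 18.5 with vector control cells and reached 122 with TDAG8-overexpressing cells, at least 4.81-fold higher, while its second probe set was under the floor on both. Foxm1 went from 31.7 to 50.8, a log2 ratio of 0.74. A pair of further Foxm1 probe sets was under the floor in the control and gave bounds of 0.67 and 1.07.

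Set by role, activators had a higher median than inhibitors, and both roles held genes with and without a cycling transcript. The 21 measured activators had a median log2 ratio of 0.86, 10 of them past 2-fold, and the 16 measured inhibitors a median of 0.50, 2 of them past 2-fold. The 7 inhibitors whose own transcript was marked as cycling (Cdkn2c, Cdkn2d, Cdkn3, Rbl1, E2f7, E2f8 and Pkmyt1) all lay above 0, with a median of 0.94. The 9 other measured inhibitors had a median of -0.04, with 4 above 0 and 5 below. Those above were E2f4 (0.84), E2f6 (0.62), Wee1 (0.07), which acts in S/G2/M, and Cdkn1a (0.05). E2f4 and E2f6 were thus higher than Cdkn2d (0.42) and Pkmyt1 (0.57), whose transcripts were marked as cycling. E2f5, whose probe sets disagreed, was among those below. Among activators, 14 with a transcript marked as cycling had a median of 1.67 and 7 without one had 0.36. The 5 ubiquitin factors, Ccnf and Skp2 among them, had a median of 1.90.

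**Figure D3:**
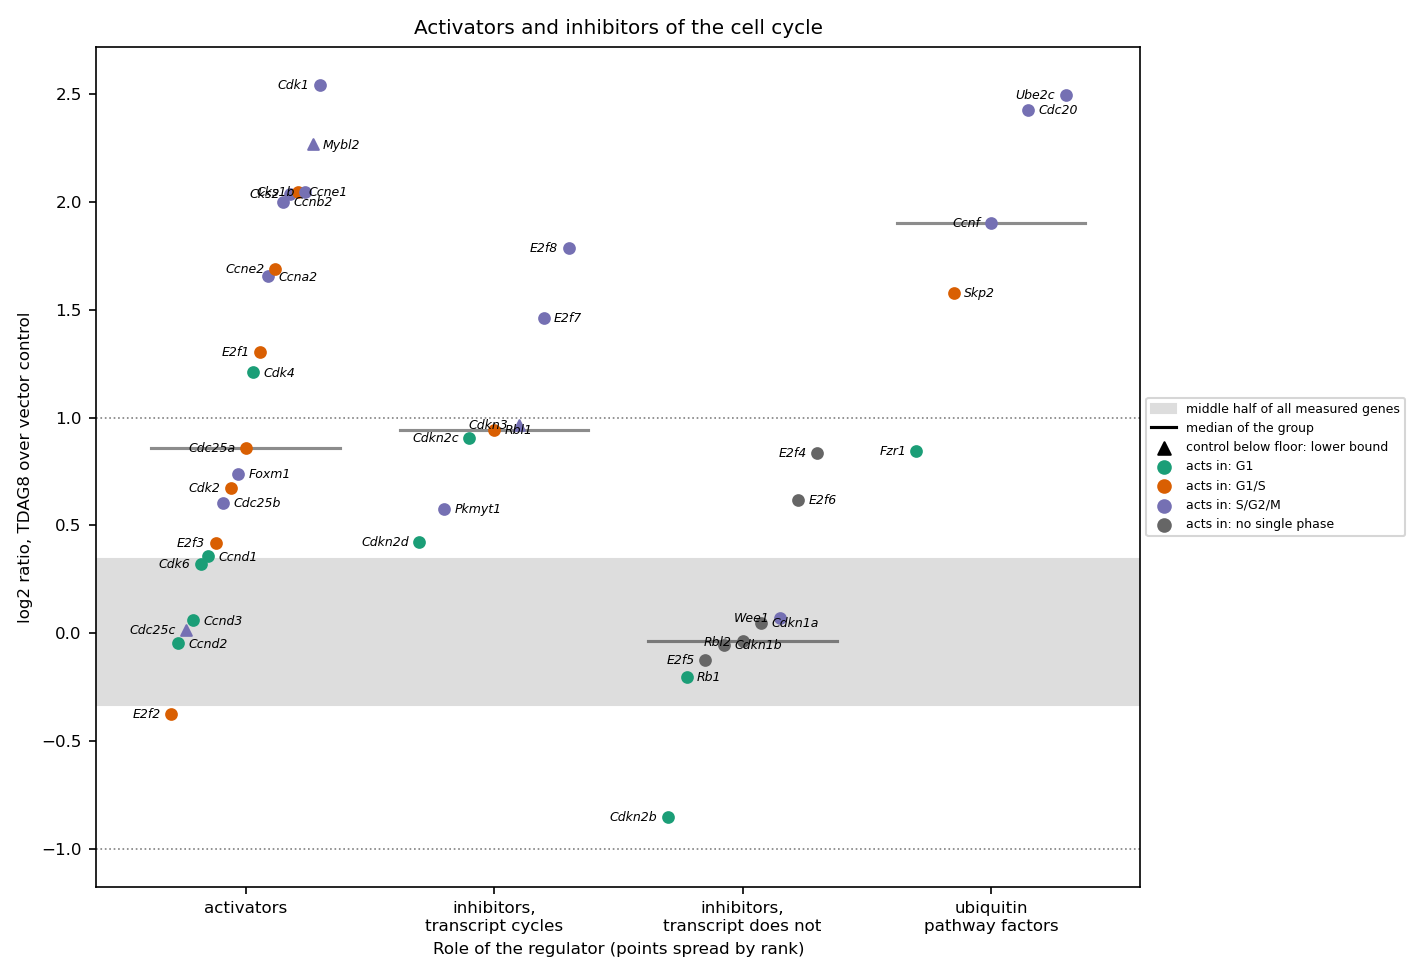
Centred log2 ratio of TDAG8 over vector control of each measured gene by role (1 point a gene, spread by rank, coloured by phase of action), with group medians as bars, lower bounds as triangles and the interquartile range of all measured genes shaded. Inhibitors with a transcript marked as cycling lie at 0.42 or above, whereas most other inhibitors lie inside the shaded range.

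The genes around this core had lower medians. The 7 partners of E2F and pocket proteins (the MuvB subunits and the DP proteins) had a median of 0.40, and 1 of them, Tfdp1, passed 2-fold. The DP proteins, which pair with E2Fs to bind DNA, went apart: Tfdp1 went from 221 to 449, a log2 ratio of 1.09, and Tfdp2 from 373 to 210, or -0.77. Of 13 other measured cyclins, and of 14 genes that were the other CDKs with Mnat1, an assembly factor of Cdk7, none passed 2-fold, with medians of -0.08 and 0.15. Of 16 subunits and regulators of the APC/C, 14 lay above 0 with a median of 0.44, and Fbxo5, which encodes the APC/C inhibitor Emi1, was the only one past 2-fold, from 58.0 to 192. None of the 7 measured SCF genes passed 2-fold.

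Genes driven by p53, the factor behind Cdkn1a, showed no shared direction. Of 12 measured, 9 lay below 0 and 3 above, with a median of -0.17. Gadd45a went from 101 to 249 and Sesn2 from 32.1 to 82.6, both past 2-fold and both also induced by stress without p53. Mdm2, a classical p53 target, went from 225 to 184, a log2 ratio of -0.23, and Sesn1 from 404 to 215, or -0.85.

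Markers of proliferation and of other cell types also differed between the arrays. All 10 proliferation markers lay above 0, 9 of them past 2-fold, and their median was 2.12. Mki67, the antigen of dividing cells, went from 139 to 532. The summed intensity of 8 macrophage markers went from 2075 to 2925, with 6 at least 2-fold higher, while Csf1r was at 0.20 and Mertk at -0.56. The summed intensity of 9 epithelial markers went from 49125 to 37377, and that of 8 endothelial markers from 7855 to 4796, with all 17 below 0 and none past 2-fold. The 4 measured neutrophil markers lay between 0.09 and 0.63, the 6 measured T and B cell markers between -0.64 and 0.68, and the 3 measured genes of red cell precursors below 0. Among the defining markers of these last 2 lists, Cd4, Hba-a1 and Klf1 were too dim to measure on either array. The part of cell composition in the ratios of the cell cycle genes was not tested.

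**Figure D4:**
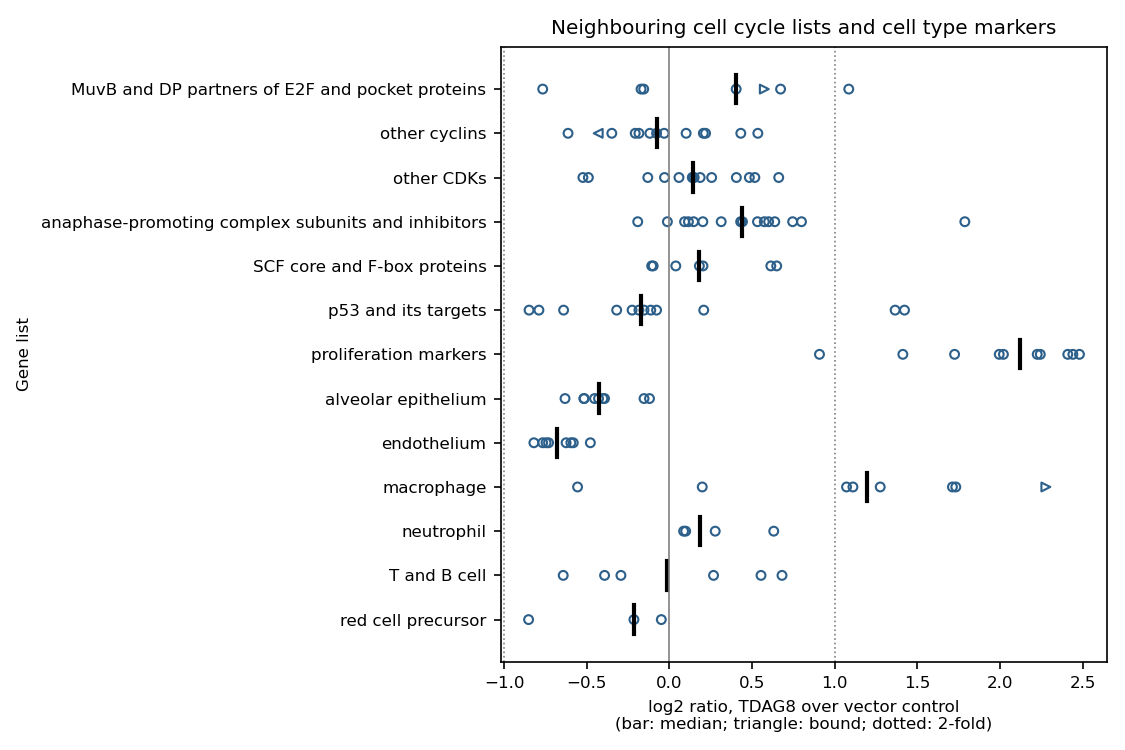
Centred log2 ratio of each measured gene in 7 neighbouring cell cycle lists and 6 marker lists (1 point a gene), with the list median as a bar and bounds as triangles. Proliferation markers (median 2.12) and macrophage markers (median 1.19) lie to the right, epithelial and endothelial markers (-0.43 and -0.68) to the left.

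Agreement among probe sets of the same gene was read from the spread of their log2 ratios. That spread compares probe sets and is no measure of error within an array or between the pools. For the 16 members with 2 or more probe sets measured above both floors, the range of their log2 ratios had a median of 0.34. In 12 of the 16 all ratios had 1 sign, and the exceptions were Ccnd2, Ccnd3, E2f5 and Wee1, each with a main ratio inside the interquartile range of all genes. Another 13 members, among them Cdk1, Ube2c, Ccnb2 and Ccne2, rest on 1 probe set.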

How the data were processed

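Whole-lung RNA of 2 groups, each a pool of 10 mice, was measured on 1 Affymetrix array per group from 2 µg of biotin-labelled material, per the labels' protocols. The deposited table holds linear intensity values, 1 per probe set, which the authors had scaled to a common trimmed mean. The array software was one not given in the sources used here. The table has no detection calls. After 64 control probe sets were set aside, 34945 of 45037 probe sets had 1 gene symbol, and 34741 of these were matched by gene identifier to RefSeq (GRCm38.p6) for current symbols. Each gene was read by its probe set of highest mean log2 intensity. Values under each array's 50th percentile were raised to it, genes under it on both arrays were left out, and log2 ratios were centred by -0.06, the median over 11044 genes. No gene list was tested and no p-value is given, since each group had 1 array. The procedure was tested on simulated data. All 44 members were named. Of the other genes, some past 2-fold or with large ratios were named, and a few were chosen after their values were seen. Proliferation markers other than Mki67 and the macrophage markers past 2-fold were not named. Phases and roles were assigned from textbook knowledge. Whether a transcript cycles was likewise assigned to each member and was not measured here. The members and lists were chosen with earlier results of these data known. Promoters of Cdc20 and Ube2c were added to those planned. The promoter of Ccnb1, a cyclin of the planned class with CCAAT but no CHR letters, was not shown. The 8 alternatives were a lower and a higher floor (30th and 65th percentile), an offset instead of a floor, loess centring with a span of 0.3, quantile normalization, no centring, averaging a gene's probe sets, and leaving out probe sets marked as sharing sequence. Python 3.11.15 with pandas and statsmodels was used.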

Additional observations from a re-analysis of the deposited data

How the results depend on the processing

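Across the 8 alternatives the count of members at least 2-fold higher ranged from 11 (floor at the 65th percentile) to 18 (floor at the 30th), against 16, and the count of lower members was 0 in each. Of the 16 members, 10 kept at least 2-fold in every alternative: Ccna2, Ccnb2, Ccne2, Cdc20, Cdk1, Cdk4, Cks1b, Cks2, Mybl2 and Ube2c. The exceptions were Ccne1, Ccnf, E2f1, E2f7, E2f8 and Skp2, with control values from 27.7 to 44.7. Among the 10, Ccne2 had a control value of 44.5 and Mybl2 one of 18.5, under the floor, so the Mybl2 ratio is a bound. Of 26 members under 2-fold, 24 stayed so, and Cdkn3 (1.10 after loess centring, 1.48 with the lower floor) and Cdc25c did not. The median of activators was 1.23 with the lower floor and 1.19 after leaving out probe sets marked as shared, past 2-fold. Without those probe sets the G1/S median was 1.08 and that of inhibitors with no cycling transcript turned to 0.080. The median of genes of no single phase, 0.0038, was 0.51 without those probe sets, its largest shift, and turned to -0.055 without centring, -0.074 after quantile normalization, -0.020 after loess centring and -0.017 with the higher floor. That 0.51 was the ratio of E2f5, then read by another of its disagreeing probe sets, and Rbl2 had no probe set left. With the higher floor the ubiquitin factors had a median of 0.9975, which was the bound of Skp2. No further cause of these shifts was tested. Probe sets near the floor limit what can be said of dim genes. No paired analysis was possible because each group had 1 array.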
